A study of Macaca mulatta with 38 samples.

Results

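CCN1, CCN2, THBS1, ACTA2, TAGLN, TGFBI and POSTN are genes that respond to transforming growth factor beta (TGF-beta) and to the coactivator YAP, and they are described here across cultures of macaque fetal cortical neural stem cells. They are 7 of the 34619 genes in the count table and were picked by name after earlier results of these data had shown high levels of several of them on the first day in culture. That time pattern is therefore given as a description, without a test. Tests are given for age, for cortical region and for the other genes of the pathways. Where a comparison includes the day 1 libraries, the members' p-values are descriptive.

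TGF-beta ligands activate receptor kinases that phosphorylate SMAD proteins, which enter the nucleus and switch on genes of the extracellular matrix and of contractile cells. YAP and its relative TAZ are kept out of the nucleus by the kinases of the Hippo pathway. In spread, adherent cells they bind TEAD factors and switch on genes such as CCN1 and CCN2, while serum response factor (SRF) drives actin and other cytoskeletal genes. In the fetal brain, contractile and collagen matrix genes are typical of meningeal fibroblasts and of the cells of vessel walls.

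The 38 libraries were made from wild-type rhesus macaque (Macaca mulatta) cortical cells in 4 culture series: E77 Frontal, E77 Occipital, E42 Anterior and E42 Posterior, named by the embryonic day and cortical region of the tissue. Cells of every series were plated on polyornithine and fibronectin at low oxygen and grown with FGF2, the stem phase, sampled on days 1, 3 and 5. FGF2 was then withdrawn, and the cells were kept in a neuronal medium with BDNF and NT-3 through a transition (days 6, 7 and 8) and a terminal phase (days 11, 14 and 17, and day 20 at E77). Each series gave 1 library per day from RNA pooled from 2 wells, so no day of a series has a replicate. The days of a phase serve as its replicates: 3 per phase and series, and 4 in the terminal phase at E77. Separate animals are not stated for these libraries, so p-values measure the spread among libraries of these cultures and not among animals. Where day or series is a block, it is the spread left after the block is taken out. Age and region cannot be told apart from fetus, dissection or culture run.

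Counted reads per library ranged from 20149635 to 56363300. CPM stands for counts divided by TMM-scaled library size, the measure used for levels. All 7 genes passed the filter on low counts, with 20794 genes tested over all libraries. TGFBI reached a mean of 1 CPM in 3 of the 12 groups of series and phase and POSTN in 5 of 12. CCN1, TAGLN and THBS1 reached it in 12 of 12, CCN2 in 11 and ACTA2 in 9. ACTA2 shares most of its coding sequence with the other actin genes, so part of its reads may belong to those.

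The E42 Anterior series stood apart. The summed level of 10 fibroblast and meningeal genes was 14421 to 39843 CPM there, against 316 to 604 CPM in E77 Frontal, 632 to 1796 CPM in E77 Occipital and 175 to 551 CPM in E42 Posterior. At E77 1 gene carried most of that sum on days 1 and 5: PDGFRA, which oligodendrocyte precursors also express, made up 564 of 632 CPM on day 5 and 607 of 680 CPM on day 1 in E77 Occipital. The type I collagen gene COL1A1 reached 16319 CPM in E42 Anterior, against at most 122 CPM in the other series. SOX2, the neural stem cell factor, was at 348 to 586 CPM in E42 Anterior and at 523 to 1126 CPM elsewhere, so neural cells were present in all 4 series. Microglial markers were near absent, with at most 12 counts of CSF1R and 5 of PTPRC in any library. In these bulk libraries, fewer cells of a type and less RNA per cell cannot be told apart.

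**Figure D1:**
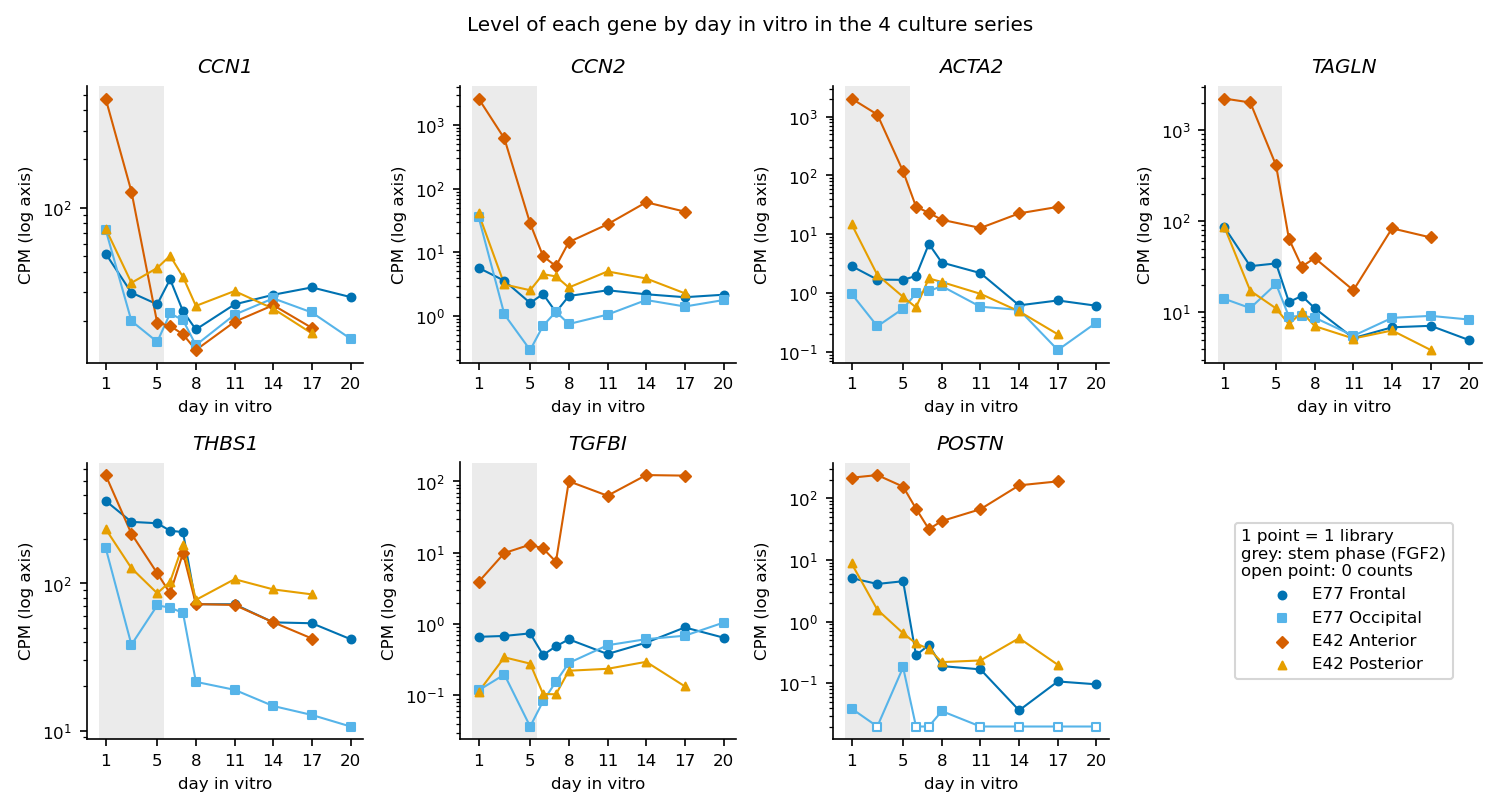
CPM (log axis) of the 7 genes by day in vitro, with 1 point per library, 1 line per culture series and the stem phase shaded grey. CCN1, CCN2 and THBS1 were highest on day 1 in all 4 series, E42 Anterior lay above the other series for CCN2, ACTA2, TAGLN, TGFBI and POSTN on 9 of 9 shared days, and open points at the bottom mark the 7 E77 Occipital libraries with 0 counts of POSTN.

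CCN1 and CCN2 were highest on day 1 in all 4 series and fell away within the FGF2 phase. CCN1 encodes a secreted matricellular protein, one that signals to cells from the matrix without building it, and is a standard target of YAP and TEAD. On days 1, 3 and 5 it stood at 52.0, 29.8 and 25.3 CPM in E77 Frontal and at 73.1, 19.9 and 14.8 CPM in E77 Occipital. It stood at 473, 126 and 19.4 CPM in E42 Anterior and at 74.3, 34.3 and 42.4 CPM in E42 Posterior. After day 5 it lay between 13.2 and 50.4 CPM in every library, and the 4 series overlapped. Day 1 was thus the one day on which CCN1 exceeded 50.4 CPM in 4 of 4 series, and day 3 did so in E42 Anterior alone.

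CCN2, the second matricellular gene of that family, answers to both YAP and SMAD proteins. Its early decline was the steepest among the members with a ratio in E77 Frontal, E77 Occipital and E42 Anterior, and ACTA2 fell slightly further in E42 Posterior (log2 ratio of day 5 to day 1 -4.11). On days 1, 3 and 5 its level was 5.70, 3.57 and 1.60 CPM in E77 Frontal and 35.8, 1.06 and 0.292 CPM in E77 Occipital. The same days gave 2603, 614 and 28.4 CPM in E42 Anterior and 40.7, 3.12 and 2.53 CPM in E42 Posterior. The log2 ratio of day 5 to day 1 was -1.83 in E77 Frontal, -6.94 in E77 Occipital, -6.52 in E42 Anterior and -4.01 in E42 Posterior. The E77 Occipital value on day 5 rests on 8 counts, against 914 on day 1. In E77 Occipital and E42 Posterior most of the decline lay between days 1 and 3, and in E77 Frontal and E42 Anterior it went on between days 3 and 5.

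The genes did not rank the series alike on day 1. E77 Occipital lay near E42 Posterior on day 1 for CCN1 and CCN2, at 73.1 against 74.3 CPM and 35.8 against 40.7 CPM, although ACTA2 and TAGLN were lower there, at 0.978 against 14.9 CPM and 14.1 against 85.7 CPM. E77 Frontal had the reverse arrangement within E77, with CCN2 at 5.70 CPM on day 1 and TAGLN at 85.6 CPM. With 1 library per day these are single values.

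THBS1 encodes thrombospondin 1, a secreted glycoprotein that can release TGF-beta from its latent form and that astrocytes use to promote synapse formation. It was also highest on day 1 in 4 of 4 series, with a shallower decline to day 5 than that of CCN2 in each. On days 1, 3 and 5 it stood at 365, 262 and 257 CPM in E77 Frontal and at 175, 38.4 and 70.9 CPM in E77 Occipital. In E42 Anterior it stood at 546, 218 and 118 CPM, and in E42 Posterior at 235, 127 and 85.9 CPM. Around FGF2 withdrawal it behaved unlike CCN1 and CCN2: on days 6, 7 and 8 it was at 85.8, 161 and 72.5 CPM in E42 Anterior and at 103, 184 and 77.4 CPM in E42 Posterior, a peak on day 7 in both. At E77 there was no such peak, and the step lay between days 7 and 8, with 72.3 CPM on day 8 against 224 CPM on day 7 in E77 Frontal and 21.4 against 63.1 CPM in E77 Occipital.

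The contractile genes ACTA2 and TAGLN were prominent at plating in E42 Anterior. ACTA2 encodes smooth muscle actin, the hallmark of myofibroblasts and vessel wall muscle. On days 1, 3 and 5 it reached 2024, 1084 and 117 CPM in E42 Anterior and 14.9, 2.04 and 0.865 CPM in E42 Posterior. At E77 it was low throughout, at 2.89, 1.70 and 1.68 CPM in Frontal and 0.978, 0.274 and 0.547 CPM in Occipital on the same days. Its highest day at E77 was not day 1 but day 7 in Frontal (6.88 CPM, 198 counts) and day 8 in Occipital (1.32 CPM, 37 counts). So ACTA2 was highest at plating in 2 of the 4 series, both of E42.

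TAGLN encodes transgelin, an actin-binding protein of smooth muscle and a classic SRF and TGF-beta target. On days 1, 3 and 5 it stood at 85.6, 32.1 and 34.5 CPM in E77 Frontal and at 14.1, 11.1 and 20.5 CPM in E77 Occipital. It stood at 2212, 2004 and 410.1 CPM in E42 Anterior and at 85.7, 17.3 and 11.1 CPM in E42 Posterior. In E42 Anterior it held its level to day 3, when CCN1 and CCN2 had already dropped to 126 and 614 CPM, and lost most of it between days 3 and 6, when it reached 63.9 CPM. In E77 Occipital TAGLN was highest on day 5, the exception among the 4 series.

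The matrix genes did not follow the name of the group. TGFBI, a secreted adaptor between collagen and integrins named for its induction by TGF-beta, was highest on day 1 in 0 of 4 series. In E42 Anterior its level was 3.90, 9.91 and 13.0 CPM on days 1, 3 and 5, then 11.5 and 7.48 CPM on days 6 and 7, and 101, 63.1, 123 and 121 CPM on days 8, 11, 14 and 17. Elsewhere it stayed near the detection limit, at 0.368 to 0.895 CPM in E77 Frontal, 0.0364 to 1.05 CPM in E77 Occipital and 0.103 to 0.341 CPM in E42 Posterior. The highest E77 Occipital value, on day 20, rests on 33 counts.

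POSTN encodes periostin, a matricellular protein of fibroblasts that binds collagen and is induced by TGF-beta. In E42 Anterior it was at 215, 237 and 154 CPM on days 1, 3 and 5, fell to 31.5 CPM on day 7, and stood at 187 CPM on day 17, so its course there had a trough rather than a peak at plating. In E42 Posterior it was at 8.79, 1.56 and 0.649 CPM on days 1, 3 and 5. In E77 Frontal the same days gave 5.08, 4.08 and 4.52 CPM, and every later library had 12 counts or fewer. E77 Occipital had 7 counts of POSTN in its 10 libraries together, with 7 of them at 0.

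**Figure D2:**
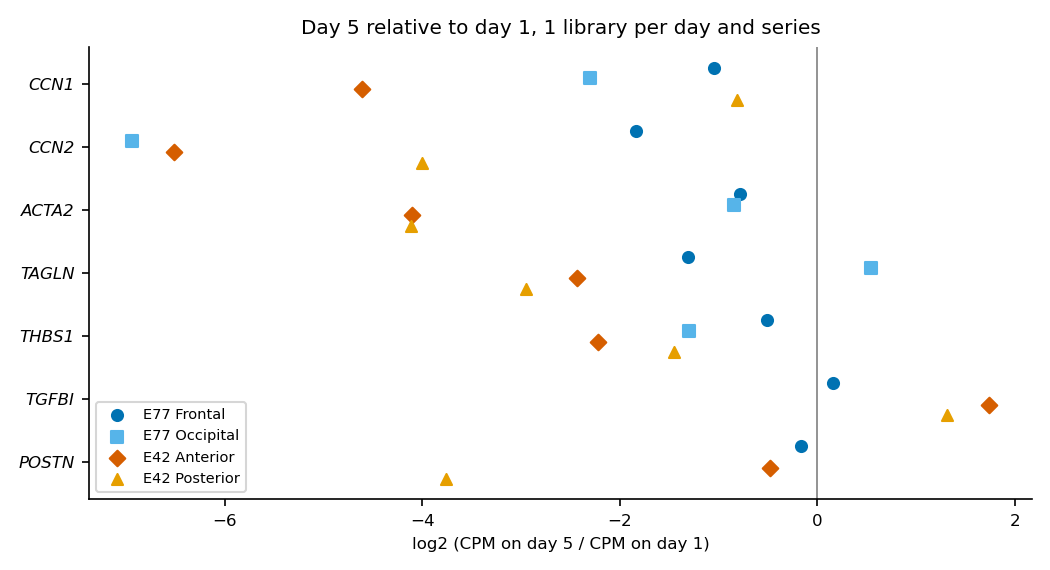
Log2 ratio of CPM on day 5 to CPM on day 1 for each gene, with 1 point per culture series. CCN1, CCN2, ACTA2 and THBS1 lie left of 0 in all 4 series, TAGLN in 3 of 4, and TGFBI lies right of 0 in the 3 series drawn; TGFBI and POSTN in E77 Occipital are not drawn because day 5 or day 1 had 3 counts or fewer.

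Counts over the members put the label to the data. CCN1, CCN2, ACTA2 and THBS1 were lower on day 5 than on day 1 in 4 of 4 series, and TAGLN and POSTN in 3 of 4. A decline at each step, over days 1, 3 and 5, occurred for CCN2 in 4 of 4 series, for CCN1, ACTA2 and THBS1 in 3, for TAGLN in 2, for POSTN in 1 and for TGFBI in 0. A highest level on day 1 thus describes CCN1, CCN2 and THBS1 in every series, the contractile genes in some series, and not TGFBI. The level itself could still be low, as for CCN2 in E77 Frontal, at 5.70 CPM on day 1.

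Per unit of gene length, as RPKM, the order of the genes on day 1 differed between the series. In E42 Anterior TAGLN (1525 RPKM) and ACTA2 (1428 RPKM) led, followed by CCN2 (939 RPKM), CCN1 (209 RPKM), THBS1 (85.7 RPKM), POSTN (53.7 RPKM) and TGFBI (1.21 RPKM). In E77 Frontal TAGLN (68.3 RPKM) and THBS1 (66.2 RPKM) were level at the top, and in E42 Posterior TAGLN (65.6 RPKM) led THBS1 (40.9 RPKM). In E77 Occipital CCN1 (35.8 RPKM) and THBS1 (30.3 RPKM) were ahead of CCN2 (14.3 RPKM) and TAGLN (10.8 RPKM). By day 17 CCN1 was first at E77, at 15.9 RPKM in Frontal and 11.03 RPKM in Occipital. On that day THBS1 (14.8 RPKM) was first in E42 Posterior and POSTN (49.1 RPKM) and TAGLN (48.0 RPKM) were in E42 Anterior.

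In the terminal phase CCN2 was highest in E42 Anterior. CCN2 was at 2.21 ± 0.233 CPM in E77 Frontal and 1.503 ± 0.349 CPM in E77 Occipital (SD, n = 4 each), against 44.1 ± 16.8 CPM in E42 Anterior and 3.72 ± 1.38 CPM in E42 Posterior (SD, n = 3 each). CCN1 lay at 28.6 ± 2.85, 21.8 ± 4.93, 20.9 ± 3.61 and 23.6 ± 6.91 CPM in the same order of series, and the ranges of neighbouring series overlapped. The order of the series for THBS1 began with E77 Occipital at 14.3 ± 3.52 CPM, below 55.5 ± 12.5 CPM in E77 Frontal, 56.1 ± 14.7 CPM in E42 Anterior and 94.2 ± 11.6 CPM in E42 Posterior. Its 4 E77 Occipital libraries (10.7 to 18.9 CPM) did not overlap those of any other series, nor did the 3 of E42 Posterior (84.3 to 107 CPM), while E77 Frontal and E42 Anterior overlapped.

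In E42 Anterior several of these genes came back after day 7. CCN2 was at 61.1 CPM on day 14 against 6.04 CPM on day 7, TAGLN at 83.5 CPM on day 14 against 17.5 CPM on day 11, and POSTN at 187 CPM on day 17 against 31.5 CPM on day 7. CCN1 stayed within a narrower range, at 24.9 CPM on day 14 against 16.5 CPM on day 7. The fibroblast and meningeal sum was 14421, 20402, 17444, 25499 and 27578 CPM on days 7, 8, 11, 14 and 17. It rose between days 7 and 8 and between days 11 and 14, as did CCN2, TAGLN and POSTN. Between days 8 and 11 it fell, as did TAGLN, while CCN2 and POSTN rose. Between days 14 and 17 it rose, as did POSTN, while CCN2 and TAGLN fell. The endothelial gene CDH5 had 0.726 CPM on day 5 of that series and 44.3 CPM (1409 counts) in its highest library. PECAM1, a second endothelial gene, stayed between 0.409 and 2.16 CPM there. The sum of 7 endothelial genes, with both included, ranged from 13.9 to 87.7 CPM in that series and was highest on day 17. The part of fibroblast or endothelial cells in these levels was not tested.

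**Figure D3:**
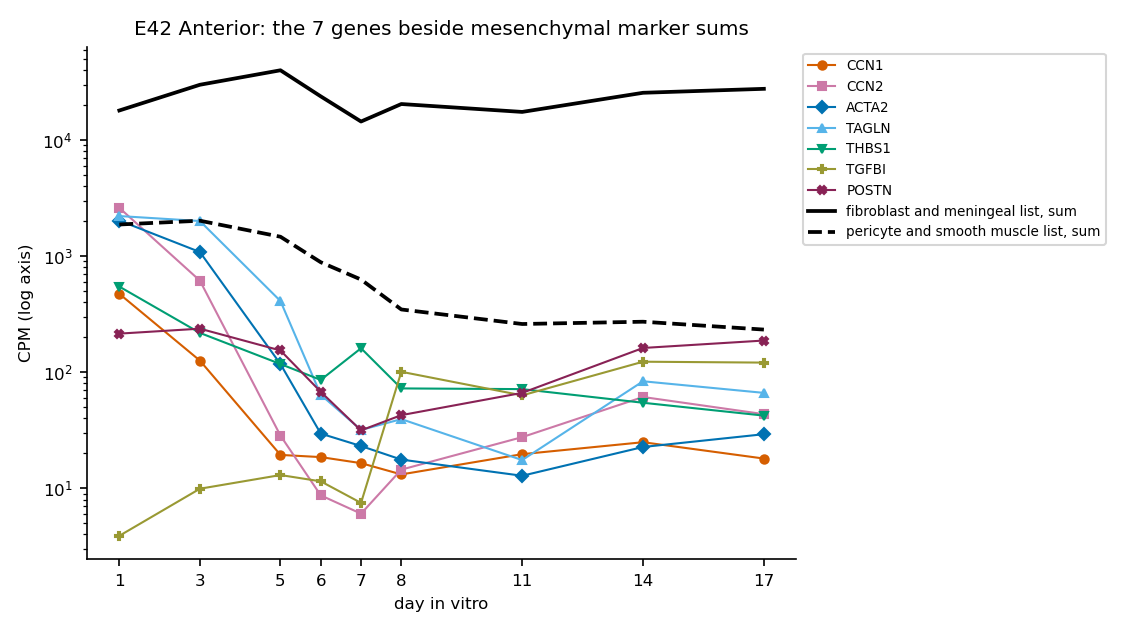
CPM (log axis) by day in vitro in the E42 Anterior series: the 7 genes as coloured lines, the sum of 10 fibroblast and meningeal genes as a solid black line and the sum of 9 pericyte and smooth muscle genes as a dashed black line. The fibroblast sum was highest on day 5 (39843 CPM), when CCN1, CCN2, ACTA2 and TAGLN were already far under their day 1 levels.

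Over days 1, 3 and 5 the fibroblast and meningeal sum rose in E42 Anterior, while CCN1, CCN2, ACTA2 and TAGLN fell. The sum was 17946, 29892 and 39843 CPM on these days. Collagen genes made up most of it: COL1A1, COL1A2 and COL3A1 were at 16319, 9335 and 11359 CPM on day 5. On day 1 they were at 7841, 4362 and 4854 CPM. FOXC1 (144 against 158 CPM) and TWIST1 (9.31 against 11.6 CPM) were lower on day 5 than on day 1. The other genes of the sum were higher on day 5. The pericyte and smooth muscle sum, over 9 genes, was 1871, 2016 and 1467 CPM on days 1, 3 and 5 and 233 CPM on day 17. NOTCH3 made up 1060 CPM of it on day 1 and 758 CPM on day 5. In the other series NOTCH3 was at 313 to 446 CPM on days 1 and 5. MYH11, the smooth muscle myosin gene that defines mature muscle of the vessel wall, reached at most 4.82 CPM in E42 Anterior (151 counts), on day 1. On day 5 MYH11 was at 0.605 CPM there. RGS5 and DES, also in that sum, went the other way in E42 Anterior. RGS5 was at 3.002 CPM on day 1 and 11.6 CPM on day 5, and DES at 9.74 and 15.996 CPM. All 10 fibroblast genes and all 9 pericyte genes were detected on every day of that series. In E42 Posterior, where CCN1 and CCN2 also fell early, the fibroblast sum was 331 CPM on day 5 and 399 CPM on day 1, and in E77 Occipital it was 632 and 680 CPM. How much of each gene's level came from mesenchymal cells was not tested.

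The share of the variance of log2 CPM that lay between the series differed widely among the 7 genes. It was 6.35% for CCN1, 36.5% for THBS1, 51.3% for TAGLN, 56.9% for CCN2, 71.98% for ACTA2, 85.2% for TGFBI and 87.6% for POSTN. Most of the variance thus lay within the series for CCN1 and between the series for TGFBI and POSTN. The part within the series was not split into day and other variation.

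With the mean of each series taken off, the members' log2 CPM could be set against each other over the 38 libraries, which share series and days and are not independent. CCN1 and CCN2 were closest (Pearson r 0.90), followed by ACTA2 and TAGLN (r 0.83). TGFBI ran against THBS1 (r -0.67) and ACTA2 (r -0.54), although it had 33 counts or fewer in every library outside E42 Anterior. Among 10570 named genes with a mean of at least 10 CPM, those most like CCN1 were CCN2, the myosin light chain gene MYL12A (r 0.89) and the tropomyosin gene TPM1 (r 0.89). The genes most like CCN2 after CCN1 were MSRB3 (r 0.87), a methionine sulfoxide reductase, and MYL12B (r 0.86), a second myosin light chain.

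Genes of the actin cytoskeleton also headed the list for ACTA2, with the non-muscle myosin gene MYH9 (r 0.90), EPS8 (r 0.88), for an actin-capping protein, and FLNA (r 0.87), for filamin. TAGLN was most like AXL (r 0.93), for a receptor tyrosine kinase, VCL (r 0.92), for vinculin, and FLNA (r 0.92). THBS1 was most like the Notch ligand gene JAG1 (r 0.91), NPHP4 (r 0.90) and STARD13 (r 0.89). POSTN was most like ATP1B3, VIM and IGFBP3 (r 0.89 each), for a sodium pump subunit, vimentin and an IGF-binding protein. TGFBI was most like TPCN1, TMEM132C and GLDC (r 0.81 each), with the same limit of low counts outside E42 Anterior. TPM1 was at 219.8 CPM on day 5 and 1363 CPM on day 1 in E42 Anterior and at 82.9 and 154 CPM in E77 Occipital, a narrower span than that of CCN2. MYL12A was at 51.3 and 128 CPM and at 25.9 and 34.6 CPM on those days in the same series.

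The other genes of the pathways could be tested for day 5 against day 1, with 4 libraries each and the series as a block (edgeR quasi-likelihood test, Benjamini-Hochberg adjusted p under 0.05 over 18991 genes). In that comparison 7.31% of all genes were higher and 7.12% lower on day 5. Of 17 YAP and TAZ target genes tested 0 were higher, 5 were lower and 12 did not pass, with a median log2 fold change of -0.65, against 0.00 over all genes. NUAK2, a kinase gene induced by YAP, averaged 13.9 ± 6.87 CPM on day 5 and 27.0 ± 7.14 CPM on day 1 (SD, n = 4 each, log2 fold change -1.15 ± 0.24, adjusted p = 0.0131). PTPN14, whose phosphatase restrains YAP, fell by 0.85 on the log2 scale, and NT5E, for the surface enzyme CD73, by 1.17. LATS2, a Hippo kinase gene that YAP induces as feedback, and TGFB2 were the other lower genes, and all 5 were lower on day 5 in 4 of 4 series. Without E42 Anterior 2 of the list were higher and 5 lower, where 7.83% of all genes were higher and 5.5% lower.

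The ligand INHBA, a subunit of activin, had the largest tested decline of the ligands, receptors and SMADs. It was at 0.123 CPM on day 5 against 0.785 CPM on day 1 in E77 Frontal and at 0 against 0.196 CPM in E77 Occipital. In E42 Anterior it was at 8.19 against 102 CPM and in E42 Posterior at 0.0618 against 2.27 CPM (log2 fold change -4.00 ± 0.56, adjusted p = 0.00416, edgeR). Of 17 genes of that list 4 were higher, 2 lower and 11 did not pass, with a median of 0.13. LTBP3, which tethers latent TGF-beta to the matrix, rose by 0.71 ± 0.10, averaging 212 ± 44.3 CPM on day 5 and 129 ± 36.1 CPM on day 1 (SD, n = 4 each). LTBP4, ITGB8 and ACVR1B were the other higher genes and TGFB2 the other lower one.

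TGF-beta SMAD targets had no shared direction. Of 12 tested 2 were higher, ANGPTL4 (2.29 ± 0.64) and SKIL (0.37 ± 0.11), 0 were lower and 10 did not pass, with a median of -0.12.

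Of 14 contractile SRF targets 1 was lower, ACTG2, the second smooth muscle actin gene, by 2.92 on the log2 scale, and 0 were higher, with a median of -0.63. Its level in E42 Anterior was 52.7 CPM on day 5 and 508 CPM on day 1, and in E77 Occipital it was at 0.182 and 0.0782 CPM. Without E42 Anterior 2 of 13 contractile genes were higher and 2 lower, where 7.83% of all genes were higher and 5.5% lower. Of 17 Hippo and TEAD genes 1 was higher, WWTR1, which encodes TAZ (0.70 ± 0.12), and 2 were lower, TEAD4 (-1.33 ± 0.32) and LATS2 (-0.65 ± 0.16). Of 4 other CCN and thrombospondin genes 0 were higher and 1 lower, CCN3 (-1.71 ± 0.33). Of 9 immediate early genes, which any growth stimulus can induce, 1 was higher on day 5, JUNB (0.66 ± 0.20), and 0 lower.

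**Figure D4:**
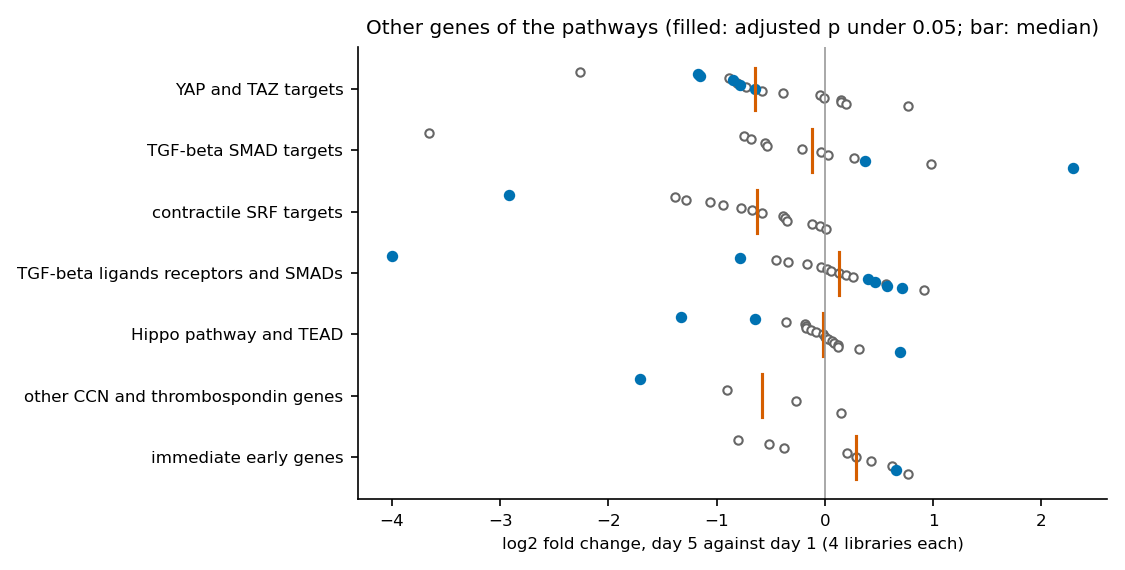
Log2 fold change of day 5 against day 1 for each tested gene of 7 lists that hold none of the members, with the list median as a bar and genes past the adjusted p threshold filled. The median of the YAP and TAZ targets was -0.65 and that of the contractile SRF targets -0.63, while most single genes did not pass the threshold.

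Over the longer span, contractile genes were the list with the most even direction. In the terminal against the stem phase, with 14 and 12 libraries, 31.9% of all genes were higher and 30.4% lower (edgeR, adjusted). Of 15 contractile SRF targets 0 were higher and 13 lower, with a median of -0.91 against 0.00 over all genes. Without E42 Anterior 1 was higher and 7 were lower, where 31.3% of all genes were higher and 28.8% lower. MYL9, the smooth muscle myosin light chain gene, had a terminal range of 0.900 to 24.6 CPM with a median of 1.92 CPM, against a stem range of 3.28 to 470 CPM with a median of 7.70 CPM (log2 fold change -2.50 ± 0.21). Of 12 SMAD targets 1 was higher and 6 lower, among them ANGPTL4 (-4.00 ± 0.78), and without E42 Anterior 4 were higher and 6 lower.

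Of 19 YAP and TAZ targets 8 were lower and 5 higher by the terminal phase, with a median of 0.04. Without E42 Anterior 7 were lower and 6 higher, where 28.8% of all genes were lower and 31.3% higher. F3, for tissue factor, rose by 1.76 ± 0.15, and IGFBP3 fell by 2.76 on the log2 scale. Of the ligands, receptors and SMADs 7 of 17 were higher and 6 lower, and of the Hippo and TEAD genes 4 of 17 were higher and 9 lower, among them TEAD2 (-1.44 ± 0.13) and TEAD3 (-1.24 ± 0.12). Of 5 other CCN and thrombospondin genes 0 were higher and 2 lower, and of 9 immediate early genes 3 were higher and 2 lower.

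The age comparison in the stem phase asked how E77 cultures (6 libraries) differed from E42 cultures (6 libraries), with day in vitro as a block. Of the 7 genes 0 were higher at E77, 6 were lower and 1 did not pass, where 28.8% of all genes were higher and 31.4% lower. The stem phase holds the day 1 libraries, whose high levels led to the choice of members, so the members' p-values are descriptive here. Without the day 1 libraries the 6 genes were still called lower at E77. CCN2 ranged from 0.292 to 35.8 CPM at E77 with a median of 2.59 CPM, and from 2.53 to 2603 CPM at E42 with a median of 34.6 CPM (log2 fold change -4.10 ± 0.50, adjusted p = 5.6e-07, edgeR). ACTA2 ranged from 0.274 to 2.89 CPM at E77 with a median of 1.33 CPM, and from 0.865 to 2024 CPM at E42 with a median of 66.2 CPM (log2 fold change -5.82 ± 0.51, adjusted p = 4.5e-09). The ranges of the 2 ages overlapped for both genes, since the E42 Posterior libraries of days 3 and 5 fell inside the E77 range, as did the E42 Anterior library of day 5 for CCN2 (28.4 CPM).

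CCN1 (-1.39 ± 0.30), TAGLN (-2.83 ± 0.38), TGFBI (-2.33 ± 0.47) and POSTN (-5.40 ± 0.46) were also lower at E77 on the log2 scale. THBS1 did not pass, at 38.4 to 365 CPM at E77 and 85.9 to 546 CPM at E42 (log2 fold change -0.24 ± 0.20, edgeR adjusted p = 0.316). With E42 Anterior left out of the contrast, so that both E77 series stood against E42 Posterior, 24.8% of all genes were higher and 26.3% lower. ACTA2 (-2.03, adjusted p = 0.0090) and POSTN (-2.36, adjusted p = 0.0052) were then lower at E77. CCN1 (-0.69, adjusted p = 0.108), CCN2 (-1.12, adjusted p = 0.122) and TAGLN (-0.03, adjusted p = 0.968) did not pass, and TGFBI turned to 0.24 (adjusted p = 0.790). With E77 Frontal left out too, E77 Occipital against E42 Posterior with 3 libraries each, the ACTA2 (-3.00) and POSTN (-4.50) calls held and THBS1 passed as lower (-0.75, adjusted p = 0.0411). POSTN had 6 counts in the 3 E77 Occipital libraries of that phase, so its value there is imprecise.

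**Figure D5:**
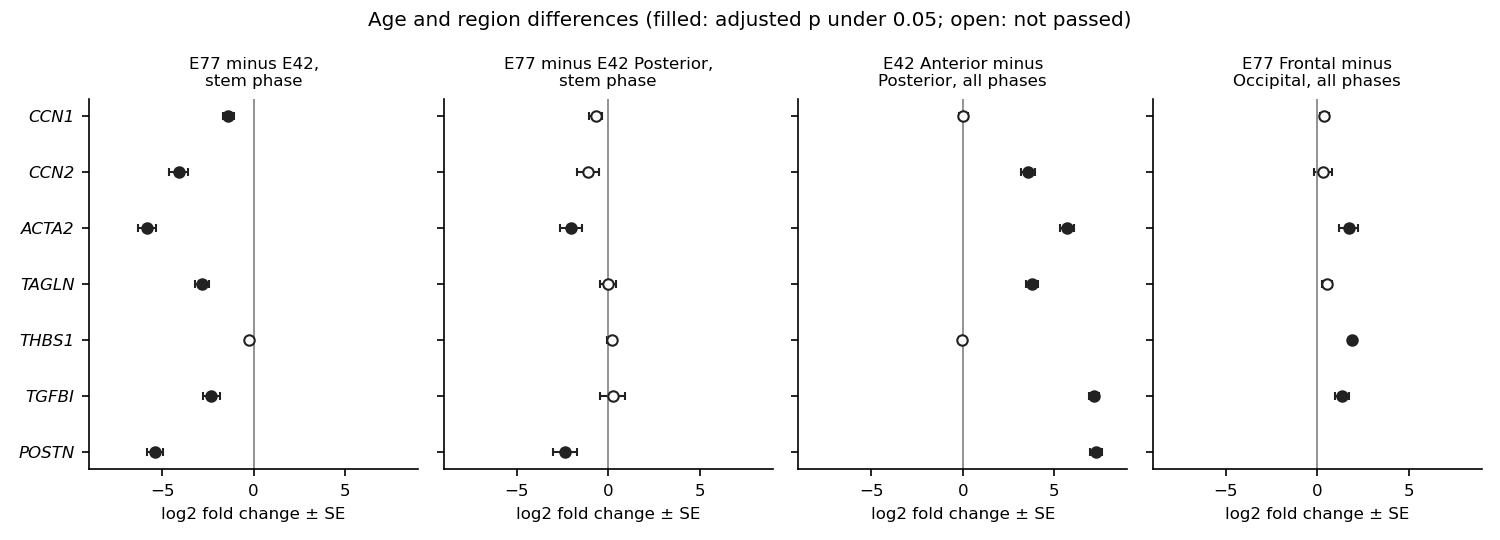
Log2 fold changes ± SE of the 7 genes in 4 comparisons, from left to right age in the stem phase, the same with both E77 series against E42 Posterior, region at E42 and region at E77, with calls filled. With E42 Anterior in the comparison the E77 values of CCN2, ACTA2, TAGLN, TGFBI and POSTN lie far below 0, and without it ACTA2 and POSTN are the filled points; POSTN is not drawn in the E77 region panel because E77 Occipital had 7 counts in all.

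Counts in the pathway lists also changed without E42 Anterior. In the stem phase 0 of 15 contractile genes were higher at E77 and 14 lower, with a median of -1.32 against -0.03 over all genes. In both E77 series against E42 Posterior 1 was higher and 2 lower. Of 12 SMAD targets 1 was higher and 6 lower, against 4 higher and 2 lower without E42 Anterior. Of 19 YAP and TAZ targets 3 were higher and 8 lower, against 8 and 2 without it. The ligands, receptors and SMADs had 2 of 17 higher and 8 lower, the Hippo and TEAD genes 4 of 17 and 8, the other CCN and thrombospondin genes 1 of 5 and 2, and the immediate early genes 1 of 9 and 4. NT5E was an exception among the YAP and TAZ targets, higher at E77 by 3.48 ± 0.19.

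In the terminal phase 6 of the 7 genes were again lower at E77 (8 libraries) than at E42 (6 libraries), where 20.6% of all genes were higher and 24.4% lower. CCN2 ranged from 1.05 to 2.53 CPM at E77 with a median of 1.87 CPM, and from 2.27 to 61.1 CPM at E42 with a median of 16.3 CPM (log2 fold change -2.84 ± 0.51, adjusted p = 0.00011, edgeR). THBS1 ranged from 10.7 to 72.2 CPM at E77 with a median of 30.4 CPM, and from 42.3 to 107 CPM at E42 with a median of 77.9 CPM (log2 fold change -1.25 ± 0.21, adjusted p = 3.3e-05). CCN1, at 15.4 to 32.1 CPM at E77 and 16.7 to 30.5 CPM at E42, did not pass (log2 fold change 0.25 ± 0.30, edgeR adjusted p = 0.518). POSTN had 0 to 4 counts in each E77 library, and no fold change is given for it.

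With E42 Anterior left out of the contrast THBS1 was still lower at E77 (-1.64, edgeR adjusted p = 9.4e-06). Its difference lay between E77 Occipital and E42 Posterior (-2.62 for that pair), while the terminal means of E77 Frontal and E42 Anterior were 55.5 and 56.1 CPM. CCN2 (-1.08, adjusted p = 0.202) lost its call without E42 Anterior, as did POSTN (adjusted p = 0.084). ACTA2, TAGLN (-1.21 ± 0.40 with all libraries) and TGFBI (-2.97 ± 0.49 with all libraries) turned to 0.31 (adjusted p = 0.830), 0.42 (adjusted p = 0.553) and 1.44 (adjusted p = 0.0502). The ACTA2 call (-2.32 ± 0.72, adjusted p = 0.0116) was also lost without the E42 Posterior library of day 11 (adjusted p = 0.165), and that of TAGLN without any 1 of 4 libraries, E42 Anterior days 14 and 17, E42 Posterior day 11 and E77 Frontal day 14 (adjusted p up to 0.0913). Of the lists, 1 of 15 contractile genes was higher at E77 and 2 lower, and 6 of 19 YAP and TAZ targets were higher and 4 lower, against 2 and 0 and 9 and 1 without E42 Anterior. With E42 Anterior left out 18.1% of all genes were higher at E77 and 22.4% lower.

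Region at E42 was compared over all 3 phases, E42 Anterior minus E42 Posterior, with 9 libraries each and day as a block. Of the 7 genes 5 were higher in E42 Anterior, 0 lower and 2 did not pass, where 25.1% of all genes were higher and 30.3% lower. The members' p-values are descriptive here too, as the day 1 libraries are included. Without the day 1 libraries the 5 genes were still called higher in E42 Anterior. POSTN ranged from 31.5 to 237 CPM in E42 Anterior with a median of 154 CPM, and from 0.200 to 8.79 CPM in E42 Posterior with a median of 0.443 CPM (log2 fold change 7.29 ± 0.32, adjusted p = 5.0e-13, edgeR). TGFBI ranged from 3.90 to 123 CPM in E42 Anterior and from 0.103 to 0.341 CPM in E42 Posterior (log2 fold change 7.18 ± 0.26), with 4 to 12 counts in each E42 Posterior library. The 2 regions did not overlap for either gene.

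ACTA2 (5.70 ± 0.37), TAGLN (3.77 ± 0.32) and CCN2 (3.58 ± 0.37) were higher in E42 Anterior on 9 of 9 days. The ratio of E42 Anterior to E42 Posterior was not constant: for CCN2 it was 63.9 on day 1, 197 on day 3, 1.45 on day 7 and 19.2 on day 17. For ACTA2 it was 135 on day 1, 530.0 on day 3 and 11.4 on day 8. CCN1 and THBS1 did not pass over the phases (0.02 ± 0.24 with adjusted p = 0.957, and -0.03 ± 0.16 with adjusted p = 0.892, edgeR). CCN1 was 6.37 times higher in E42 Anterior on day 1 and 3.67 times on day 3, but 0.457 times the E42 Posterior level on day 5 and 0.368 times on day 6, so it was higher on 4 of 9 days.

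The difference between the 2 regions in the change of the terminal against the stem phase was tested as an added comparison, chosen after seeing the data, with 4.73% of all genes higher and 6.96% lower. Its stem phase holds the day 1 libraries, whose high levels led to the choice of members. The members' p-values here are therefore descriptive. THBS1 dropped further in E42 Anterior (-1.62 ± 0.40, adjusted p = 0.0096, edgeR), with 42.3 to 71.5 CPM in the terminal and 118 to 546 CPM in the stem phase, against 84.3 to 107 CPM and 85.9 to 235 CPM in E42 Posterior. TGFBI went the other way (3.70 ± 0.82, adjusted p = 0.0036), with 63.1 to 123 CPM in the terminal and 3.90 to 13.0 CPM in the stem phase of E42 Anterior, against 4 to 7 and 4 to 12 counts per library in those phases of E42 Posterior. TAGLN passed narrowly as lower (-2.34 ± 0.75, adjusted p = 0.0459). CCN1 (-1.59, adjusted p = 0.092), CCN2 (-2.43, adjusted p = 0.079), ACTA2 (-2.33, adjusted p = 0.206) and POSTN (2.67, adjusted p = 0.0503) did not pass. Without day as a block THBS1 (adjusted p = 0.207), TGFBI (adjusted p = 0.0800) and TAGLN (adjusted p = 0.217) did not pass either, and POSTN did (3.04, adjusted p = 0.0441). The TAGLN call was lost without any 1 of 9 of the 12 libraries (adjusted p up to 0.186), the exceptions being day 5 of E42 Anterior and days 1 and 17 of E42 Posterior. Without day 5 of E42 Anterior CCN1 (-2.25, adjusted p = 0.000101) and CCN2 (-3.08, adjusted p = 0.0108) passed, and without day 5 of E42 Posterior CCN1 (-2.01, adjusted p = 0.0272), CCN2 (-2.90, adjusted p = 0.0344) and POSTN (3.24, adjusted p = 0.00688) did. POSTN also passed without day 3 of E42 Anterior (adjusted p = 0.0371) or of E42 Posterior (adjusted p = 0.0284). Of 15 contractile genes 0 were higher and 9 lower in this comparison, with a median of -2.01, and of 12 SMAD targets 0 were higher and 6 lower.

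Of the pathway lists at E42, 13 of 15 contractile genes, 9 of 12 SMAD targets and 15 of 19 YAP and TAZ targets were higher in E42 Anterior, with 0, 1 and 2 lower and medians of 1.41, 1.11 and 0.84 against -0.06 over all genes. The ligands, receptors and SMADs had 12 of 17 higher and 3 lower, among them the TGF-beta coreceptor genes TGFBR3 (6.93 ± 0.22) and ENG (3.57 ± 0.17). The Hippo and TEAD genes had 9 of 17 higher and 4 lower, the other CCN and thrombospondin genes 3 of 5 and 1, and the immediate early genes 5 of 9 and 1. The fibroblast and meningeal sum was also higher in E42 Anterior (14421 to 39843 CPM) than in E42 Posterior (175 to 551 CPM). Its part in these counts was not tested.

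Region at E77 was compared as Frontal minus Occipital, with 10 libraries each. Of the 7 genes 4 were higher in E77 Frontal, 0 lower and 3 did not pass, where 16.3% of all genes were higher and 13.8% lower. With the day 1 libraries included, the members' p-values are again descriptive. THBS1 ranged from 41.8 to 365 CPM in Frontal with a median of 148 CPM, and from 10.7 to 175 CPM in Occipital with a median of 29.9 CPM (log2 fold change 1.87 ± 0.16, adjusted p = 6.4e-09, edgeR). It was higher in Frontal on 10 of 10 days, although the ranges overlapped. THBS1 was thus the one member with a clear regional difference at E77 and none over the phases at E42.

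ACTA2 ranged from 0.611 to 6.88 CPM in Frontal with a median of 1.83 CPM, and from 0.108 to 1.32 CPM in Occipital with a median of 0.567 CPM (log2 fold change 1.71 ± 0.51, adjusted p = 0.0129, edgeR). It was higher in Frontal on 10 of 10 days, and the call was lost without the Occipital library of day 1 (adjusted p = 0.0569). TGFBI was higher by 1.36 ± 0.38 (adjusted p = 0.0083), on 7 of 10 days and from 9 to 25 counts in Frontal against 1 to 33 in Occipital. That call was lost without the Occipital library of day 8 (adjusted p = 0.0868) and without day as a block (adjusted p = 0.113). POSTN had 1 to 123 counts per library in Frontal and 0 to 5 in Occipital, higher in Frontal on 10 of 10 days (edgeR adjusted p = 0.0058, no fold change given).

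CCN1 (0.38 ± 0.23, adjusted p = 0.242), CCN2 (0.30 ± 0.49, adjusted p = 0.701) and TAGLN (0.53 ± 0.30, adjusted p = 0.200) did not pass at E77 (edgeR). Without the E77 Occipital library of day 5, the day of its highest TAGLN level, TAGLN passed (0.86, adjusted p = 0.0181). For CCN2 Frontal was higher on 8 of 10 days, the exceptions being day 1, at 5.70 CPM in Frontal against 35.8 CPM in Occipital, and day 7, at 1.15 against 1.16 CPM. Of the lists, 9 of 19 YAP and TAZ targets were higher in Frontal and 2 lower, 4 of 12 SMAD targets higher and 3 lower, and 0 of 15 contractile genes higher and 1 lower. The ligands, receptors and SMADs had 6 of 17 higher and 5 lower, the Hippo and TEAD genes 2 of 17 and 6, the other CCN and thrombospondin genes 4 of 5 and 0, and the immediate early genes 6 of 9 and 0.

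Whether the early decline itself differed with age was asked as the day 5 against day 1 change at E77 minus that at E42, with 2 series each. This comparison rests on the day 1 libraries that led to the choice of members, so the members' p-values are descriptive here too. No member passed, where 0.105% of all genes were higher and 0.0316% lower, 26 genes in all, with 1675 at an unadjusted p under 0.05. For ACTA2 the day 5 to day 1 ratio was -0.78 and -0.84 on the log2 scale in E77 Frontal and Occipital and -4.11 in both E42 series, a difference of 3.53 ± 0.91 (adjusted p = 0.32, edgeR). The DESeq2 Wald test called 269 genes and put ACTA2 at 3.34 with an adjusted p of 0.0218. With edgeR it passed without day 3 of E42 Anterior (adjusted p = 0.0128) or of E42 Posterior (adjusted p = 0.0165), and POSTN passed without day 1 of E42 Anterior (3.43, adjusted p = 0.0422). For CCN2 the 4 ratios did not sort by age, and the difference of 1.11 ± 2.43 was smaller than its error. No gene of the 7 lists passed in this comparison.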

How the data were processed

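For 38 libraries and 34619 genes the authors deposited whole-number counts, and RPKM values, which are counts scaled to gene length and library total. STAR and featureCounts are named in the submitters' processing notes. Genome build and annotation: not given in the sources used here. In 17493 genes the deposited RPKM equalled counts over library total and a fixed gene length (median coefficient of variation 4.7e-06). RPKM was used only to order genes within a library. The members and the gene lists were chosen with earlier results of these data known.

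The tests used edgeR 4.0.16 under R 4.3.3, with filterByExpr, TMM factors (0.899 to 1.10), robust quasi-likelihood tests and Benjamini-Hochberg adjustment over all genes tested, at a threshold of 0.05. Age and region comparisons used 12 means of series and phase plus day as a block (19 residual degrees of freedom), the phase comparison the 12 means (26), and day 5 against day 1 the 12 stem libraries with series as a block (6). The replicate number of a library is its day, per the labels, so equal numbers share a day. For 44 of 55 pairs of libraries of equal day, deviations from the group means had a correlation above 0.1 (median 0.22, lowest -0.096, highest 0.68). No 2 libraries of a group agreed within counting noise (chi-square over noise at least 10.2 in 42 pairs).

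Members were named throughout. From each list the rule took up to 3 called genes with the largest change in 4 comparisons (or 2 with the highest level where fewer than 2 passed), and the text prints some of these and, for day 5 against day 1, the other called genes. One gene that the rule took is not reported here. AMOTL2 and TGIF1 were not in the table, and CCN5, CCN6 and COMP were not tested. LATS2 and TGFB2 stand in 2 lists. Log2 CPM used a prior count of 2. The fits were tested on simulated data. Alternatives were DESeq2 1.42.0 (size factors and Wald test), no filter, no block, only the libraries compared, series or day 1 left out, and each library left out in turn.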

Additional observations from a re-analysis of the deposited data

Results flagged for a closer look

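ACTA2 in the terminal E77 Frontal libraries had a value far from the rest: 2.19 CPM on day 11, against 0.611 to 0.752 CPM on days 14, 17 and 20. It was the 1 such value among 14 groups of 4 libraries examined, where chance gives about 1 in 20. The day 11 level continued the decline from 6.88 CPM on day 7 and 3.31 CPM on day 8.

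For 3 genes the change of the terminal against the stem phase differed between the E42 regions, E42 Anterior minus E42 Posterior. The difference was -2.34 for TAGLN, -1.62 for THBS1 and 3.70 for TGFBI on the log2 scale, where TGFBI had 4 to 12 counts per library in E42 Posterior. The comparison was chosen after seeing the data and includes the day 1 libraries that led to the choice of genes. None of the 3 calls held without day as a block. The TAGLN call also depended on the scaling and the filter, with an adjusted p of 0.0503 under DESeq2 size factors and 0.0877 with no filter (edgeR). The fibroblast marker sum was high in E42 Anterior in both phases, and its part in these differences was not tested.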

How the results depend on the processing

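Of 1190 recomputed member values 1109 kept their side of the threshold or, with no test, their size. Another 23 moved, 17 gained a call, 35 lost one and 6 changed sign where the main or the recomputed value was a call. A change of sign with neither value called was counted as kept. CCN1 over the E42 region was such a case (0.02, and -0.17 without day 1 of E42 Anterior). All 6 reversals were in the age comparisons without E42 Anterior: TAGLN 0.62 and TGFBI 1.55 in the terminal phase with E77 Occipital against E42 Posterior alone, and, with both E77 series, TGFBI 0.24 in the stem phase and ACTA2 0.31, TAGLN 0.42 and TGFBI 1.44 in the terminal phase. DESeq2 size factors shifted the median over all genes by less than 0.1 in every comparison. Without the replicate block the region difference of the terminal against stem change at E42 had 1131 genes past the threshold, against 2431, and the other blocked counts were 9882 (E42 region), 4614 (E77 region), 11049 (age, stem) and 8087 (age, terminal). The 26 genes of the age difference in the day 5 against day 1 change became 91 with no filter and 269 with DESeq2. With each library left out in turn, the counts ranged from 10671 to 11405 for the E42 region (11502 with all), 5702 to 6412 for the E77 region (6262), 11597 to 12555 for age in the stem phase (12514), 8531 to 9457 in the terminal phase (9353) and 1702 to 2824 for the E42 region difference. They ranged from 12654 to 13196 for terminal against stem (12970), 1329 to 2887 for day 5 against day 1 (2741; lowest without the E42 Posterior library of day 5, and 1511 without that of day 1) and 0 to 300 for the age difference. With only the compared libraries, CCN1 (0.35, edgeR adjusted p = 0.0357) and TAGLN (0.58, adjusted p = 0.00624) passed in the E77 region. The age comparisons of both E77 series against E42 Posterior, the age and E42 region comparisons without the day 1 libraries and the E42 region difference were chosen after seeing the data. One library per day and few counts of TGFBI and POSTN outside E42 Anterior limit the single-day values.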
